A study of Homo sapiens with 6 samples.

Results

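The mitochondrial ribosomal protein genes were taken as every gene of the deposited expression table whose symbol begins with MRPL or MRPS followed by a number. This rule used symbols only and no measured value, and it gave 78 of the 21863 gene symbols listed. Of these, 49 carried a large subunit symbol (MRPL) and 29 a small subunit symbol (MRPS). Large and small subunit members are so named below by symbol alone. The small subunit members thus include *MRPS18A*, *MRPS30* and *MRPS36*, whose products do not sit in that subunit. Among the 78 were 76 plain coding symbols and the pseudogene symbols *MRPL42P5* and *MRPL45P2*.

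The cells were Hep G2, a human hepatoblastoma-derived line widely used as a model of hepatocellular carcinoma. They were transfected with 5 nM of a synthetic mimic of *miR-195* or *miR-497* and collected 24 h later, or were left without transfection (NT, time 0 h in the labels). From each of the 3 conditions, RNA bound to Argonaute 2 (Ago2-IP) and total RNA were sequenced, which gave 6 libraries with 1 library per group. The comparison asked which transcripts each mimic brought to Ago2 and which it lowered. Because NT cells received neither a mimic nor the transfection reagent and carry another time, the mimic, the reagent and the time cannot be told apart in any comparison with NT. No group had a replicate, so no difference was tested, and the 95% intervals given below cover counting error only. In bulk RNA, fewer cells that express a gene and less RNA per cell cannot be told apart.

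Mitochondria keep their own ribosome, which translates the few mRNAs of the mitochondrial genome, all of them for subunits of the respiratory chain and ATP synthase. Its RNAs come from mitochondrial DNA, but all of its proteins are encoded in the nucleus, made on cytosolic ribosomes and imported. The transcripts of these proteins are therefore open to cytosolic Argonaute proteins, which miRNAs guide to mRNAs mainly through pairing of the seed.

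The mature miRNAs, from RefSeq (GRCh38.p14, chr17:7017667-7017687 for *miR-195* and chr17:7017979-7017999 for *miR-497*, minus strand), are shown because they share all 7 seed bases, at positions 2 to 8 and in capitals, and so the same 7-base site:
hsa-miR-195-5p: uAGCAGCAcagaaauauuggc
hsa-miR-497-5p: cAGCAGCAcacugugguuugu

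The site, TGCTGCT on the sense strand, lay in an annotated 3′UTR of 8 of 76 coding members (10.5%), against 25.3% of 18212 listed genes with an annotated 3′UTR. The members' longest 3′UTRs had a median length of 570 bases, against 1280 for all coding genes. The 8 members were *MRPL19*, *MRPL35*, *MRPL37*, *MRPS2*, *MRPS22*, *MRPS23*, *MRPS25* and *MRPS27*. In *MRPS22*, *MRPS25* and *MRPS27* the site lay only in 3′UTRs of transcripts other than the one the annotation marks as canonical. The site lay in the coding sequence of 12 of 76 members (15.8%), against 34.7% of 18403 genes. The following windows (GRCh37, the build of the alignments, coordinates of the 7-base site) show the site, in capitals, in 3′UTRs of 2 members whose values are described below, and in the coding sequence of *MRPL20*, *MRPL10* and *MRPL3*, the members with a coding site that had the highest scores with *miR-195*:
MRPS2 3′UTR, chr9:138396265-138396271, plus strand: tgctagaagaTGCTGCTgtccctgtga
MRPS2 3′UTR, chr9:138396415-138396421, plus strand: tgtaatgagaTGCTGCTggcaggccac
MRPL35 3′UTR, chr2:86438428-86438434, plus strand: cttcagctccTGCTGCTagtctccaat
MRPL20 coding, chr1:1337523-1337529, minus strand: acgaaggattTGCTGCTgccttggggg
MRPL10 coding, chr17:45904074-45904080, minus strand: gggcacaacaTGCTGCTggtcagtgaa
MRPL3 coding, chr3:131206565-131206571, minus strand: ctcctctttaTGCTGCTcactttcgtc

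Values were deposited as RPKM, reads scaled to transcript length and to the mapped reads of the library. Read numbers were inferred from the steps between RPKM values for 70 of the 78 members. Their median was 1134, 1228 and 1579 reads per member in total RNA of NT, *miR-195* and *miR-497* cells, and 96, 139 and 45 reads in the corresponding Ago2-IP libraries, so that Ago2-IP values, above all with *miR-497*, were the less precise. All 11 hepatocyte markers examined were above 0 in every total RNA library, and the 3 blood markers were at 0. Of 2 endothelial markers, both were above 0 in NT and *miR-195* cells and 1 in *miR-497* cells, at up to 0.412 RPKM. Of 3 fibroblast markers, 1 was above 0 in each total RNA library, at up to 0.380 RPKM.

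All 78 members were above 0 in all 6 libraries. In total RNA of NT cells their median was 38.6 RPKM, against 5.51 RPKM over all genes above 0. The medians with *miR-195* and *miR-497* were 35.02 and 39.97 RPKM. The highest levels in NT were those of *MRPL50* (125.2 RPKM), *MRPL33* (108.8), *MRPS23* (103.2), *MRPL37* (94.6) and *MRPL51* (90.8). The lowest were those of the pseudogene symbols *MRPL42P5* (0.364 RPKM) and *MRPL45P2* (1.07), followed by *MRPL22* (10.3), *MRPL54* (12.3) and *MRPS14* (12.5). Reads of the pseudogenes and of *MRPL42* and *MRPL45* may have been split between near-identical sequences, and *MRPL42P5* rested on 2 to 16 reads per library. Levels of the plain coding members thus ran from 10.3 to 125.2 RPKM, although nearly all of their products sit in the same particle. Large and small subunit members had similar medians, 35.9 and 42.5 RPKM in NT.

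**Figure D1:**
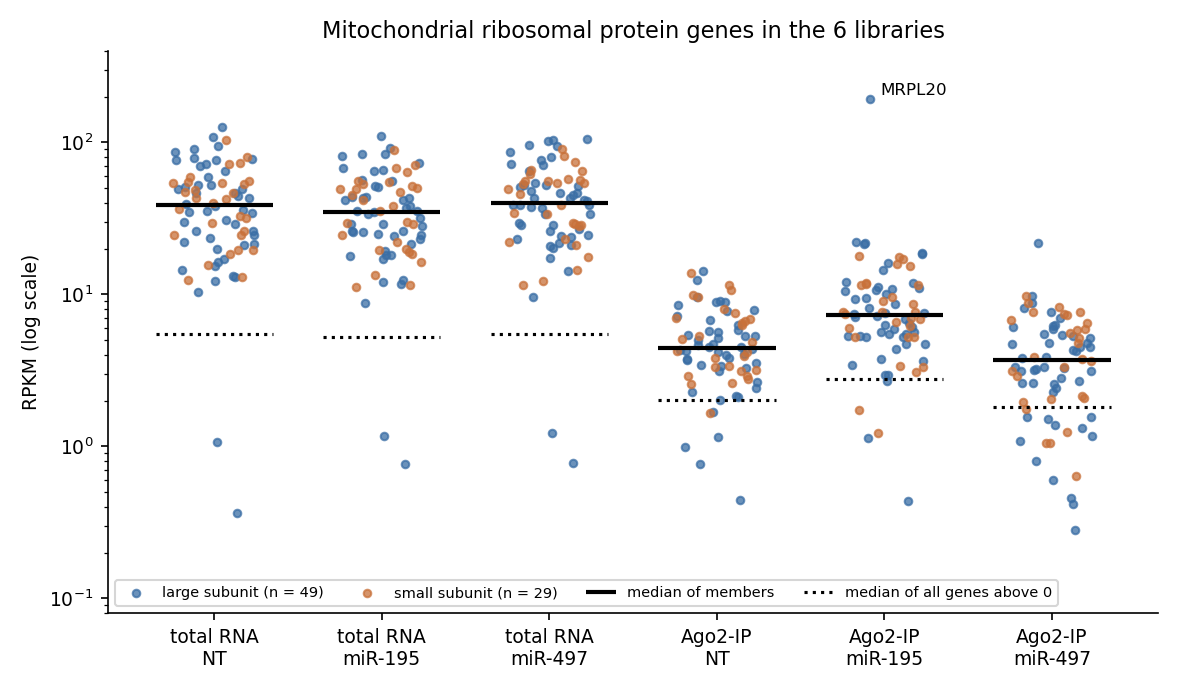
RPKM (log axis) of the 78 members in each of the 6 libraries, with large subunit members in blue and small subunit members in orange. Solid lines give the members' median and dotted lines the median of all genes above 0 in that library. The members' median lies above the all-gene median in each library, and *MRPL20* stands apart at 191.8 RPKM in Ago2-IP RNA with *miR-195*.

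Relative to their level in total RNA, members were low in Ago2-IP RNA. In NT cells the members' median was 4.41 RPKM in Ago2-IP RNA, and the median log2 ratio of Ago2-IP to total RNA was -3.01, against -1.62 over all genes. The ratio was 2-fold or more below 1 for 75 of 78 members, where 69.1% of all genes were that low. With *miR-195* this held for 72 members (53.7% of all genes) and with *miR-497* for 76 (73.1%), while 2 members (9.05%) and 1 member (7.07%) were 2-fold or more above 1. The pseudogene symbol *MRPL45P2* was the 1 member 2-fold or more above 1 (6.69% of all genes), at 2.94. Because each library was scaled to its own reads, a ratio has no absolute zero, and only its place relative to other genes can be read. After division of each library by its median RPKM, the NT ratio was 2-fold low for 58 members and 2-fold high for 2, and the shares of all genes became 19.4% and 23.0%.

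*MRPS25* had the highest ratio of a coding member, 0.518 in NT. This gene of the small subunit had 12.98 RPKM in total RNA and 6.72 in Ago2-IP RNA. *MRPL53* (0.269) and *MRPS16* (0.250) followed, and the lowest ratios were those of *MRPS33* (0.0621), *MRPL13* (0.0655), *MRPL28* (0.0661) and *MRPL40* (0.0671). *MRPS25* carries the 3′UTR site only outside its canonical transcript, and the other members with the site had ratios from 0.0949 to 0.201 in NT.

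Members shared this low ratio with other gene sets of abundant protein complexes. The median log2 ratio in NT was -3.35 over 78 cytosolic ribosomal protein genes, -3.51 over 76 nuclear genes for respiratory chain subunits and -3.23 over 7 mitoribosome proteins without an MRP symbol. By contrast, genes that act around the mitoribosome lay closer to the all-gene median, at -2.10 for 14 mitochondrial translation factors, -2.15 for 20 genes of ribosome assembly and rRNA modification, -1.88 for 17 mitochondrial aminoacyl-tRNA synthetases and -1.65 for 17 genes of mitochondrial DNA transcription and maintenance. Over all coding genes the NT ratio also moved with transcript length (Spearman's rho 0.39 over 12872 genes sharing the same 2 libraries), but less so among the 76 coding members (rho 0.13). Members were short, with a median of 1242 bases against 3006. The part of length in the low ratio was not tested.

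**Figure D2:**
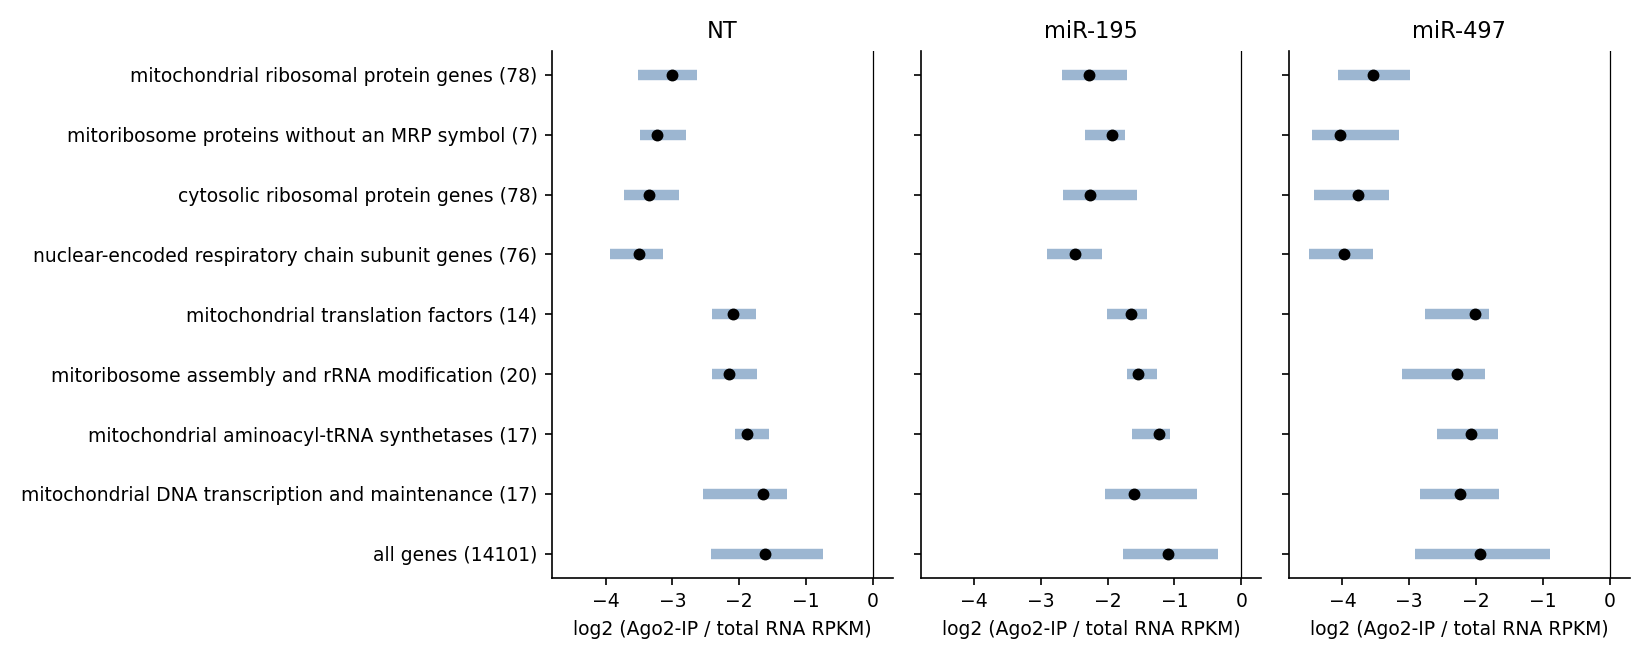
Log2 ratio of Ago2-IP to total RNA RPKM in NT, *miR-195* and *miR-497* cells. Points are list medians, bars run from the lower to the upper quartile, and the number of genes scored in NT stands after each name. Structural proteins of both ribosomes and of the respiratory chain lie left of the other mitochondrial gene lists in all 3 conditions, and the median of mitochondrial ribosomal protein genes was -3.01, -2.28 and -3.54.

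In total RNA, members differed little between conditions. With *miR-195*, the median log2 change from NT was -0.14, against 0.02 over all genes, and 62 of 78 members lay below the all-gene median. In all, 1 member was 2-fold or more lower (*MRPL20*, 3.2% of all genes) and 1 was 2-fold or more higher (*MRPL42P5*, 5.81% of all genes). Of the 70 members with inferred reads, 38 had a counting interval wholly below 0 and 7 wholly above. Set against the all-gene median, 42 intervals lay wholly below it and 6 wholly above. The medians of large and small subunit members were -0.12 and -0.15. A list of members with a bacterial counterpart was drawn up by hand and not checked by sequence comparison. The 45 members on it had a median of -0.14, and 30 plain members off it, without *MRPS36*, had -0.15. No subset so defined stood apart.

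*MRPL20* encodes the counterpart of bacterial L20, an rRNA-binding protein needed early in assembly of the large subunit. Its total RNA level was 69.9 RPKM in NT, 33.8 with *miR-195* and 53.6 with *miR-497*. With *miR-195* it was thus 0.484 of NT (interval 0.436 to 0.536), the lowest change of any member. *MRPL39*, a large subunit protein without a bacterial counterpart that resembles a tRNA synthetase, stood next. It had 39.3 RPKM in NT, 25.5 with *miR-195* (0.649 of NT, interval 0.594 to 0.709) and 28.6 with *miR-497*. *MRPS2*, a small subunit protein with 2 of the 3′UTR sites, went from 29.7 RPKM in NT to 19.7 with *miR-195* (0.663 of NT, 0.606 to 0.724) but stood at 33.7 with *miR-497*. *MRPS18A*, whose product sits in the large subunit despite its symbol, was at 0.705 of NT. At the other end stood *MRPL24*, a protein at the exit tunnel (1.33-fold of NT), *MRPL41* (1.24-fold), *MRPS11* (1.20-fold) and *MRPL34* (1.15-fold).

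With *miR-497*, total RNA of members was centred on the other genes, with a median log2 change of 0.05 against 0.09. Under division of each library by its median RPKM these were -0.06 and -0.02. No plain member reached a 2-fold difference, and *MRPL42P5* was 2-fold or more higher (6.67% of all genes were that much higher, and 2.11% that much lower). The spread nevertheless exceeded counting error, as 29 of 70 intervals lay wholly above 0 and 20 wholly below. Set against the all-gene median, 25 lay wholly above it and 30 wholly below. *MRPL4*, a protein lining the exit tunnel, was highest at 1.81-fold, with 21.4 RPKM in NT, 24.5 with *miR-195* and 38.7 with *miR-497*. *MRPL41* (1.62-fold), *MRPL55* (1.61-fold) and *MRPS26* (1.52-fold) followed. *MRPL12*, the stalk protein that recruits translation factors, was at 78.1 RPKM in NT, at 73.1 after the *miR-195* mimic and at 105.7 after the *miR-497* mimic, so that the last library alone was higher (1.35-fold, interval 1.28 to 1.43). The lowest were *MRPL1* (0.688 of NT), *MRPL42* (0.719), *MRPL39* (0.727) and *MRPL50* (0.753).

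The order of members in the *miR-497* change followed base composition. Across the 76 coding members, Spearman's rho between transcript GC content and the total RNA change was 0.86 for *miR-497* cells and 0.46 for *miR-195* cells. Over all coding genes it was 0.65 and 0.23. All these genes share the same NT and mimic libraries, and GC content was examined after member values had been seen. Of the 38 members above the median GC content of 48.0%, 36 were higher than in NT with *miR-497* (median log2 change 0.34), against 5 of the 38 at or below it (median -0.13). After median scaling these counts were 26 and 3. *MRPL41*, at 66.7% GC, and *MRPL50*, at 35.01% GC, illustrate the 2 ends. The part of GC content in the changes was not tested, and no value here separates it from the treatment.

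**Figure D3:**
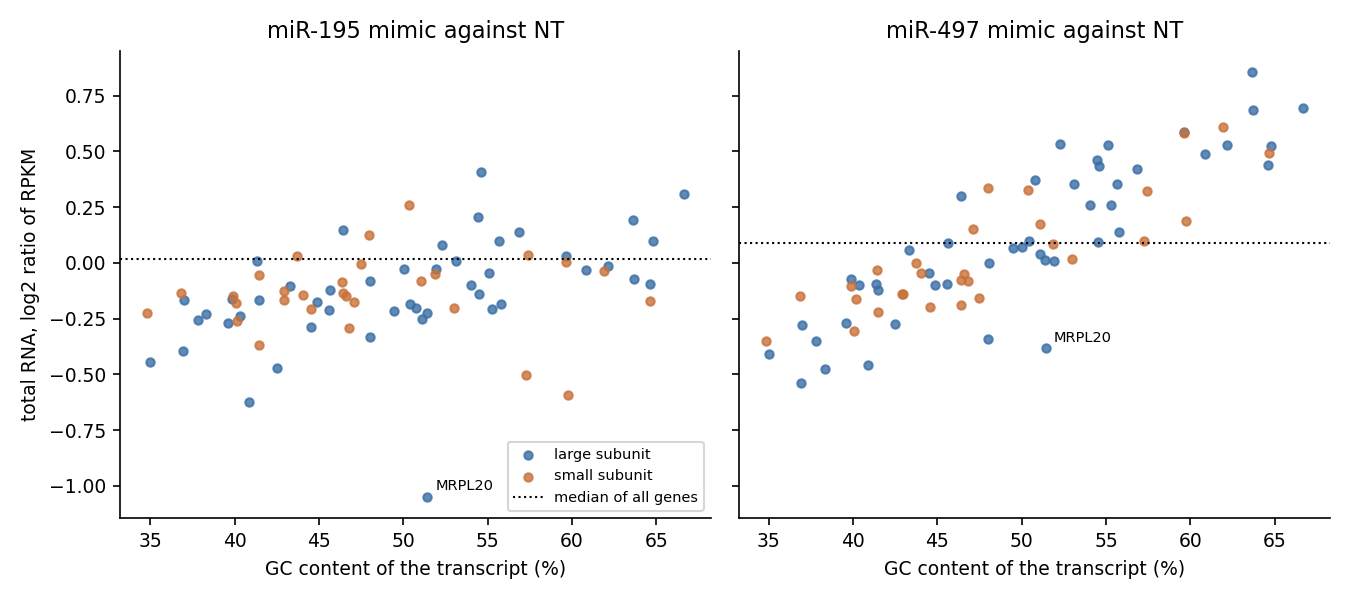
Log2 change in total RNA from NT against GC content of the transcript for the 76 coding members, with *miR-195* (left) and *miR-497* (right). Dotted lines give the median of all genes. With *miR-497* the points rise from left to right (rho 0.86), and with *miR-195* the slope is shallower (rho 0.46), with *MRPL20* far below the rest.

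In Ago2-IP RNA members lay on opposite sides of NT with the 2 mimics, as did all genes. The all-gene median log2 change from NT was 0.48 for *miR-195* cells and -0.23 for *miR-497* cells, and members are read relative to these shifts, which median scaling removes. With *miR-195* the members' median was 0.73 (0.22 after median scaling), with 52 of 78 above the all-gene median. Ago2-IP level was 2-fold or more higher for 21 of 78 members, where 23.7% of all genes were that much higher, and for none was it 2-fold lower (2.58%). The share of members was therefore close to the background. After division of each library by its median RPKM, 5 members were higher and 1 lower, and the all-gene shares became 9.05% and 7.64%. Large subunit members had a median of 0.78 and small subunit members of 0.49. Respiratory chain genes (1.05) and cytosolic ribosomal protein genes (0.95) lay higher, whereas mitochondrial translation factors (0.29) and aminoacyl-tRNA synthetases (0.24) lay lower than members.

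*MRPL20* was the exception in size. Its Ago2-IP level was 14.2 RPKM in NT, 191.8 with *miR-195* and 21.8 with *miR-497*, from 139, 1520 and 135 inferred reads. The *miR-195* value was 13.5-fold that of NT (interval 11.4 to 16.1) and 9.72-fold above the shift of all genes, while the *miR-497* value was 1.53-fold that of NT (1.21 to 1.94). *MRPL39* had 5.43 RPKM in NT, 22.2 with *miR-195* (4.09-fold, 3.29 to 5.08) and 8.10 with *miR-497* (1.49-fold). *MRPL10*, the stalk-base protein that anchors MRPL12, had 5.33 RPKM in NT, 18.8 with *miR-195* (3.54-fold, 2.98 to 4.19) and 5.13 with *miR-497* (0.962-fold). These genes were therefore high in 1 Ago2-IP library, that of *miR-195*, and near NT or modestly above it in the *miR-497* library. Next with *miR-195* came *MRPL41* (3.46-fold, from 10 reads in NT) and *MRPL4* (3.09-fold), and the lowest were *MRPS14* (0.675), *MRPS36* (0.735), *MRPL45P2* (0.852) and *MRPL19* (0.941). *MRPS36* is now regarded as a component of the 2-oxoglutarate dehydrogenase complex and not of the mitoribosome.

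**Figure D4:**
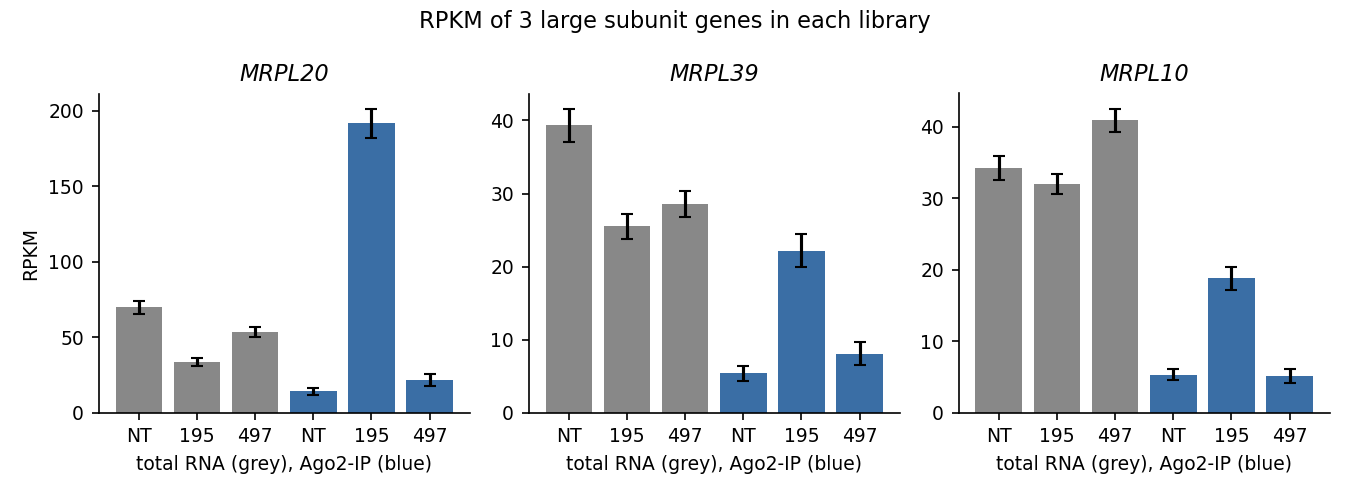
RPKM of *MRPL20*, *MRPL39* and *MRPL10* in total RNA (grey) and Ago2-IP RNA (blue) of NT, *miR-195* and *miR-497* cells, 1 library per bar, with 95% counting intervals. *MRPL20* reaches 191.8 RPKM in Ago2-IP RNA with *miR-195* while its total RNA is at its lowest, 33.8 RPKM.

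With *miR-497* the median log2 Ago2-IP change of members was -0.44 (-0.18 after median scaling), with 28 of 78 above the all-gene median of -0.23. The level was 2-fold or more lower for 7 members (6.27% of all genes) and higher for none (3.48%). After median scaling it was lower for 5 (3.74%) and higher for none (4.81%). The lowest members were close to their counting limit. *MRPS2* had 3.79 RPKM in NT, 7.61 with *miR-195* and 1.06 with *miR-497*, the last from 17 reads (0.280 of NT, interval 0.167 to 0.469). *MRPL49* (0.405), *MRPL34* (0.441) and *MRPS11* (0.479) followed among members at 1 RPKM or more. The other 3 of the 7 lay below that level, namely *MRPL55*, *MRPL36* and *MRPS12*, a protein of the decoding site, at 0.197, 0.215 and 0.205 of NT from 4, 3 and 7 reads. *MRPL20* (1.53-fold), *MRPL39* (1.49-fold), *MRPS9* (1.32-fold) and *MRPS10* (1.31-fold) were highest. Among 70 intervals, 26 lay wholly below 0 and 41 included 0. Relative to the all-gene median, 12 lay wholly below it, 4 wholly above it and 54 included it.

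**Figure D5:**
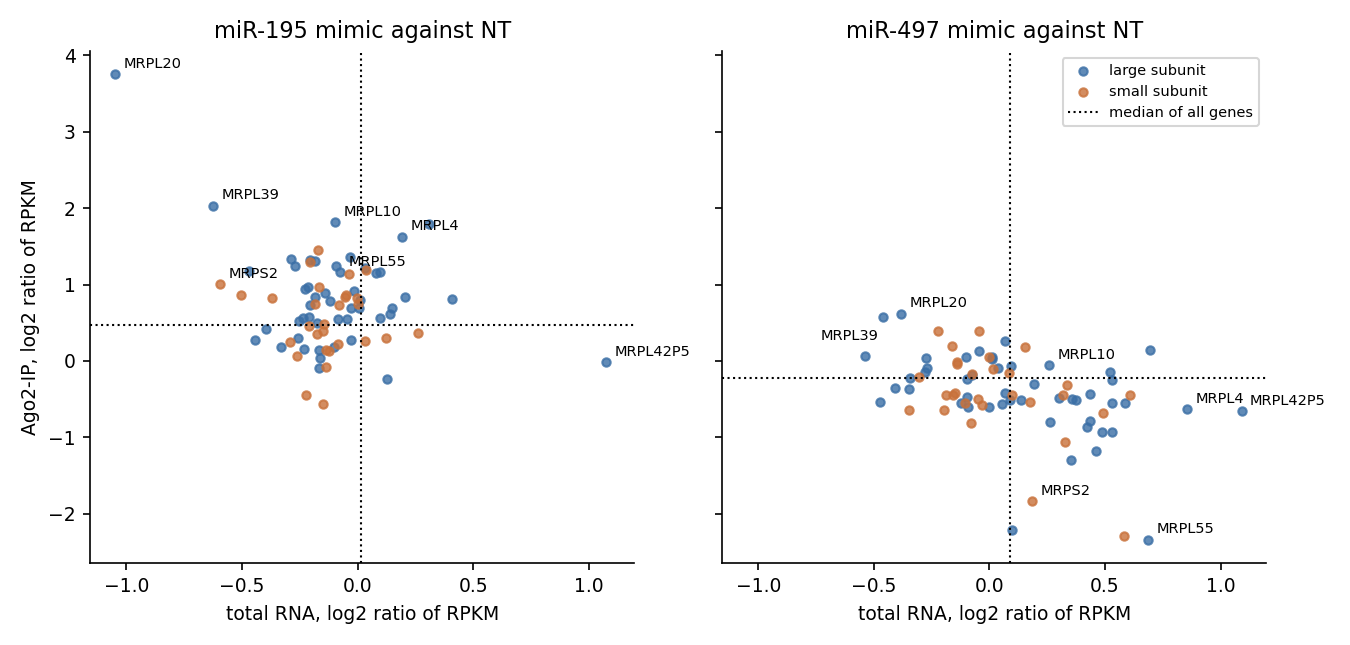
Log2 change from NT in Ago2-IP RNA (vertical) against that in total RNA (horizontal) for the 78 members, with *miR-195* (left) and *miR-497* (right). Dotted lines give the medians of all genes. With *miR-195*, *MRPL20* (-1.05, 3.76) and *MRPL39* (-0.62, 2.03) lie at the upper left, and with *miR-497* no member does so to that degree.

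The fold enrichment score divides the Ago2-IP to total RNA ratio with a mimic by that in NT. Since each library was scaled to its own reads, a score is read against the all-gene median, not against 1. That median was 1.38 for *miR-195* cells and 0.824 for *miR-497* cells. With *miR-195* the median log2 score of members was 0.79, against 0.47 over all genes, and 59 of 78 lay above the all-gene median. The score was 2 or more for 28 members, where 20.4% of all genes reached it, and 0.5 or less for 1, *MRPL42P5* (3.7% of all genes). After median scaling 8 members reached it, and 7.98% of all genes. Median log2 scores of cytosolic ribosomal protein genes (1.02) and respiratory chain genes (0.99) were higher than those of members.

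*MRPL20* had the highest score of any member, 28.0 (interval 22.9 to 34.2), and ranked 10 among 13749 genes scored. Its ratio of Ago2-IP to total RNA went from 0.203 in NT to 5.68 with *miR-195*, the only ratio above 1 of a coding member, and was 0.406 with *miR-497*. *MRPL39* (6.30, interval 4.99 to 7.96), *MRPL10* (3.78, 3.15 to 4.54) and *MRPL3*, a protein near the peptidyl transferase centre (3.14, 2.69 to 3.66), came next. The lowest scores among members at 1 RPKM or more were those of *MRPS14* (0.748, interval 0.527 to 1.06) and *MRPL45P2* (0.779, 0.446 to 1.36). *MRPS36* (0.858, 0.499 to 1.48) and *MRPS30* (1.04, 0.823 to 1.31) followed. Without *MRPL20*, *MRPL39* and *MRPL10*, members had a median log2 score that differed by less than counting error from that of all 78.

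With *miR-497* the median log2 score was -0.45, against -0.28 over all genes. It was 0.5 or less for 18 members (16.3% of all genes) and 2 or more for 2 (3.1%), namely *MRPL39* (2.05, interval 1.54 to 2.73) and *MRPL20* (2.00, 1.55 to 2.58). After median scaling these counts were 11 (8.39%) and 2 (6.02%). The same pair thus stood first among members with either mimic, although both scores share the NT libraries. *MRPS10* (1.53) and *MRPL1* (1.52) followed. *MRPS2* (0.246), *MRPL49* (0.318), *MRPL34* (0.321) and *MRPL4* (0.356) were lowest among members at 1 RPKM or more. Scores with *miR-497* followed GC content in the opposite sense to total RNA (rho -0.70 over 76 members, -0.63 over all coding genes). With *miR-195*, GC content ran in the same sense as in total RNA for the Ago2-IP change (rho 0.59 over members, 0.49 over all coding genes) and for the score (0.44 and 0.36). The part of GC content in these values was not tested.

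Set directly against each other, *miR-195* and *miR-497* libraries share no control. The members' median log2 ratio of *miR-195* to *miR-497* was -0.16 in total RNA (-0.07 over all genes), with no member 2-fold apart in either direction (3.12% of all genes higher, 3.64% lower). In Ago2-IP RNA it was 1.11 (0.67 over all genes), with 44 members 2-fold or more higher with *miR-195* (35.3%) and none lower (2.07%). After median scaling 14 were higher and none lower, and the all-gene shares were 10.1% and 12.1%. Among members at 1 RPKM or more in both libraries, *MRPL20* led by size (8.81-fold, interval 7.39 to 10.5), followed by *MRPS2* (7.18-fold, 4.35 to 11.8), *MRPL4* (4.80-fold) and *MRPS34* (4.41-fold). Below that level, with 3 to 7 reads in the *miR-497* library, *MRPL36* (11.5-fold, interval 3.56 to 36.96), *MRPL55* (11.3-fold, 4.12 to 31.2) and *MRPS12* (8.16-fold, 3.76 to 17.7) had ratios of the same order. The lowest were *MRPS31* (0.918), *MRPS14* (0.987), *MRPL19* (1.04) and *MRPL45P2* (1.05).

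Members with the shared 3′UTR site did not have higher scores with *miR-195* than those without it. Their median log2 score with *miR-195* was 0.42 over 8 members, against 0.81 over 68 members without the site. Above the all-gene median were 4 of the 8 and 55 of the 68. Over all genes the medians were 0.56 with the site and 0.45 without, and 2010 of 3547 and 4419 of 9045 genes were above. With *miR-497* the order among members was the other way, with a median of -0.10 over the 8 and -0.47 over the 68. Above the all-gene median were then 5 of the 8 and 27 of the 68. Over all genes, 1839 of 3476 with the site and 4270 of 8835 without were above. Of the 8, only *MRPL37* (55.8%) and *MRPS2* (59.7%) lay above the members' median GC content of 48.0%. Members at or below that GC content had median log2 scores of 0.55 (*miR-195* cells) and -0.08 (*miR-497* cells). Members above it had 1.07 and -0.86, in the same order. The part of GC content in the differences between members with and without the site was not tested. With *miR-195*, *MRPS2* had the highest score of the 8 (3.03), whereas *MRPL19* (1.06), *MRPL35* (1.15) and *MRPS22* (1.19) lay below the all-gene median of 1.38. *MRPL35*, with a site followed by A shown above, had 3.55, 3.64 and 3.12 RPKM in Ago2-IP RNA of NT, *miR-195* and *miR-497* cells. The all-gene median change from NT in Ago2-IP RNA was 1.39-fold with *miR-195* and 0.855-fold with *miR-497*. In total RNA with *miR-195*, all 8 were below the all-gene median, and only 14 of the 68 others were above it. The median log2 change was -0.17 for the 8 and -0.13 for the 68. Over all genes these medians were -0.07 with the site and 0.04 without, and 1525 of 3701 and 5095 of 9703 genes were above the all-gene median.

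Coding-sequence sites were examined after the values of *MRPL20* had been seen. The 12 members with such a site had a median log2 score of 1.22 with *miR-195*, against 0.73 for the other 64, and all 12 lay above the all-gene median, compared with 47 of the 64. Over all genes the medians were 0.54 with a coding site and 0.45 without, and 2460 of 4427 and 3967 of 8169 genes lay above the all-gene median. *MRPL20*, *MRPL10* and *MRPL3* are among the 12, but *MRPL39* carries the 7-base site in no annotated protein-coding transcript. Other kinds of transcript were not searched. With *miR-497*, whose seed is the same, the 12 had a median log2 score of -0.05, against -0.47 for the other 64. Above the all-gene median lay 6 of the 12 and 26 of the 64. Over all genes the order was the other way, with medians of -0.34 with a coding site and -0.26 without. Of those genes, 2006 of 4330 and 4108 of 7988 lay above the all-gene median. Whether these sites are bound was not measured.

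Among proteins of the stalk (*MRPL10*, *MRPL11*, *MRPL12*), the exit tunnel (*MRPL4*, *MRPL22*, *MRPL23*, *MRPL24*) and the small subunit (*MRPS2*, *MRPS7*, *MRPS12*), total RNA values with *miR-497* differed. *MRPL10* (1.20-fold of NT), *MRPL11* (1.29), *MRPL23* (1.44), *MRPL24* (1.35), *MRPS12* (1.496), *MRPS2* (1.14) and *MRPS7* (1.13) were above NT, as were *MRPL4* and *MRPL12* above, whereas *MRPL22* was at 0.933 of NT. Over all genes, 8449 of 14768 were above NT in this comparison. *MRPL22* has a GC content of 40.3%, below the members' median of 48.0%. The others named here lie above that median, from 50.8% (*MRPL11*) to 64.8% (*MRPL23*). The part of GC content in this difference was not tested. With *miR-195* the scores of *MRPL24* (1.33), *MRPS12* (1.67), *MRPS7* (1.76), *MRPL23* (2.09), *MRPL12* (2.52) and *MRPL11* (2.89) lay on both sides of the all-gene median of 1.38, *MRPL24* alone being below it.

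Of 3 promoter motifs searched, 2 were in a larger share of members than of listed genes, each in a minority of members. Promoter windows of 250 bases before to 50 after the start site (RefSeq, GRCh38.p14) were matched for 67 members and 13396 listed genes. The ETS-family core CCGGAAG, searched like the others on both strands, was in 28 of 67 members' windows (41.8%), against 14.1% of listed genes. The YY1 motif, of 11 bases, was in 10 (14.9%), against 1.41%. The palindromic NRF1 motif, of 10 bases, was in 1 (1.49%), against 1.702%. None of the 3 motifs contains another, and a match is a description of the sequence and not of binding. For the examples, 1 match per member was considered, and members on 1 chromosome were left out. An upstream example of each motif is shown, from the remaining member with the highest NT level in which the match and the flanking bases shown lay wholly upstream. The letters searched are in capitals (for the ETS core and YY1 as the reverse complement):
MRPL51 ETS core, chr12:6493367-6493389, minus strand: ctccaaaaCTTCCGGcaggcgga
MRPL36 YY1 motif, chr5:1799857-1799883, minus strand: ccccccccGCCGCCATCTTccttcctg
MRPL17 NRF1 motif, chr11:6683404-6683429, minus strand: gctctgatGCGCATGCGCaaacacgt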

How the data were processed

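Ago2-IP RNA and total RNA of Hep G2 cells were sequenced by the authors as 36-base reads, aligned with ELANDv2 to hg19 (GRCh37), and summarised with CASAVA 1.7 (per the submitters' processing notes and the methods). RPKM values per gene were deposited for 6 libraries in 6 value columns, each of which matched a library, with 0 columns unmatched. Whether poly-A selection was used in a given library is not given in the sources used here. Ratios of RPKM were formed per gene above 0 in every library compared, with no pseudocount, and no member symbol stood on more than 1 line. A list was described by its median and by the number of genes past 2-fold, beside all genes. With 1 library per group no test was possible. Read numbers were inferred as the smallest whole numbers that fit a gene's RPKM in all libraries within 0.004 reads and an annotated transcript length within 2.5-fold, which succeeded for 13678 genes (88.3% of those tried) and gave between 14836331 and 18549765 reads in total RNA and between 1547028 and 3118482 in Ago2-IP RNA. This step was also run on simulated libraries, drawn from genes whose reads had already been inferred and without the length check. Such a run cannot show how often the numbers inferred from the deposited values are wrong. Intervals are 95% normal intervals on the log scale. They cover counting error only, since reads were not counted by molecule. Intervals past a limit were counted over members only, so no share over all genes stands beside them.

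Transcripts were taken from GENCODE 44 on GRCh37, and 77 members were matched. Named genes were the 5 highest and 5 lowest members in NT total RNA, the 4 highest and 4 lowest with RPKM of at least 1 in each comparison, members with the 3′UTR site, pseudogene symbols, and stalk, exit-tunnel and decoding-site proteins. *MRPL3* and *MRPL10* as carriers of a coding site, *MRPL36* and *MRPL17* as promoter examples, *MRPL22*, and *MRPL36*, *MRPL41* and *MRPL55* in Ago2-IP RNA were named after values were seen. The members and lists were chosen with earlier results of these data known. Alternatives were pseudocounts of 0.1 and 1, a minimum RPKM of 1, median scaling, plain symbols, separate lines, a fold of 1.5 and other site definitions. Python 3.11.15, numpy 2.4.6, pandas 2.3.3 and matplotlib 3.10.9 were used.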

Additional observations from a re-analysis of the deposited data

Results flagged for a closer look

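*MRPL20* stood out because its total RNA and its Ago2-IP RNA lay on opposite sides of the all-gene median with *miR-195*. Relative to that median its log2 change was -1.06 in total RNA and 3.28 in Ago2-IP RNA, a distance of 4.35. *MRPL39* showed the same arrangement, at -0.64 and 1.56, a distance of 2.20. With 1 library per group, the difference between the 2 kinds of RNA was not tested for either gene.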

How the results depend on the processing

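No paired analysis was possible because each group had 1 library. Division of each library by its median RPKM shifted most member medians, since it removes the shift of all genes. The log2 median turned from 0.05 to -0.062 in total RNA with *miR-497* and became 0.22 and -0.18 in Ago2-IP RNA with *miR-195* and *miR-497*, -1.38, -1.17 and -1.53 for the Ago2-IP to total RNA ratio in NT, *miR-195* and *miR-497*, 0.27 and -0.076 for the scores, and -0.046 and 0.32 for *miR-195* against *miR-497* in total and Ago2-IP RNA. The NT level became 26.5 RPKM. A pseudocount of 1 gave 0.64 and -0.34 in Ago2-IP RNA, -2.72, -2.11 and -3.23 for the ratios, 0.69 and -0.36 for the scores and 0.92 for *miR-195* against *miR-497* in Ago2-IP RNA. Plain symbols gave 0.027 in total RNA with *miR-497*, -0.18 for *miR-195* against *miR-497* in total RNA, and an NT level of 39.5 RPKM. A 6-base site was in 27 members and 8366 genes, and the site followed by A in 2 members and 936 genes. A pseudocount of 0.1, a minimum RPKM of 1 and separate lines moved no member median beyond counting error. Nor did leaving out *MRPL20*, *MRPL39* and *MRPL10*, chosen after seeing the data. A pseudocount also scores genes at 0, so distances from the all-gene median moved more. With 0.1, the members' median less that of all genes went from -1.40 to -2.39 for the NT ratio and from 0.32 to 0.63 for the *miR-195* score. In total RNA with *miR-497* it changed sign, from -0.044 to 0.047. The all-gene share with a 2-fold low NT ratio fell from 69.1% to 42.9%. Depth limits members with few Ago2-IP reads, and with 1 library per group the spread between cultures is unknown.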
